A study of Homo sapiens with 12 samples.

Results

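The genes described here encode 9 surface proteins of white blood cells that are held in the membrane by a glycosylphosphatidylinositol (GPI) anchor: CEACAM6, CD52, CD24, CD48, CD55, CD59, PRNP, CD109 and PLAUR. They were matched by gene symbol among the 27411 genes of the expression table, and the m6A peaks assigned to their gene identifiers were taken from both peak lists, 12 of 35341 in the control list and 13 of 35851 in the shWTAP list. The group was chosen by input FPKM in this same contrast, since 3 of the 9 had stood out as much higher after knockdown. The differences of the 9 between knockdown and control are therefore given as a description with no test. The lists of partner genes and of anchor pathway genes were drawn up with earlier results of these data known.

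The cells were Kasumi-1, an acute myeloid leukaemia line labelled as wild type in genotype. Both groups carried a lentiviral vector and were selected with puromycin at 2 µg/ml from 48 h after transfer for 24 h or longer, the control with a scrambled short hairpin RNA (shRNA) and the knockdown with an shRNA against WTAP. WTAP belongs to the methyltransferase complex that puts N6-methyladenosine (m6A) on mRNA, where it holds the pair of METTL3 and METTL14 in place. Of the 12 libraries, the 6 input libraries (3 control and 3 shWTAP, called biological replicates in the labels) gave FPKM values per gene, that is fragments scaled to gene length and library total, and the immunoprecipitated RNA gave 1 list of m6A peaks per condition. The labels do not say whether the selected cells were a pool or a single clone.

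A GPI anchor is a glycolipid built in the endoplasmic reticulum and joined as a block to the end of a new protein, which then has no segment of its own across the membrane. Anchored proteins gather in cholesterol-rich patches of the cell surface and can be released by cleavage of the anchor. In white blood cells they serve adhesion (CEACAM6), signalling between cells (CD24, CD48 and CD52), protection from complement (CD55 and CD59) and proteolysis at the surface (PLAUR).

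The shRNA target was measured at 11.5, 11.2 and 11.7 FPKM in the control libraries and at 6.97, 6.48 and 5.69 FPKM in the shWTAP libraries. WTAP mRNA was thus left at 55.6% of its control mean, with a log2 difference of -0.76 (SE 0.08) and a limma adjusted p = 0.00663. Of 10 markers of the line, 9 were in the table and all 9 were above 1 FPKM in every library, with KIT at 701 to 856 FPKM and the fusion partner RUNX1T1 at 13.5 to 18.2 FPKM. None of the 9 was called, and their sum was 2210 to 2260 FPKM in control and 2420 to 2470 FPKM in shWTAP. Most of that sum was MPO, at 1300 to 1550 FPKM, and 5 of the 9 had a log2 difference above 0. RUNX1T1 lay at 17.0 to 18.2 FPKM in control and lower, at 13.5 to 16.4 FPKM, in shWTAP. Control 3 and shWTAP 1 stood apart, since mitochondrially encoded mRNAs made up 0.634% and 0.631% of their FPKM against 0.301% to 0.333% in the other 4 libraries. The fit across 11383 genes called 443 (3.89%), of which 168 were higher (1.48%) and 275 lower (2.42%) in shWTAP. Leaving out shWTAP 1 raised that count to 2751, and leaving out any other single library lowered it to between 46 and 61, or 81 without shWTAP 2. The split of 168 higher to 275 lower became 327 to 345 after quantile normalization and 323 to 339 after median centring.

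Promoters are shown for the 3 members that were much higher in shWTAP, because their levels led to the choice of the group. Each line gives the 200 bases before the RefSeq start (GRCh38.p14), written 5′ to 3′ on the gene's strand, with capitals at matches to any of 8 short motifs searched on both strands. The motifs were the TATA box TATAAA, the E-box CACGTG, the CCAAT box, the GC box GGGCGG, the RUNX motif TGTGGT, the ETS motif GGAAGT, the C/EBP motif TTNCNNAA and the AP-1 motif TGACTCA, and none of the matches printed overlaps another. The intervals are chr19:41755330-41755529 on the plus strand for CEACAM6, chr1:26317758-26317957 on the plus strand for CD52 and chr6:106975628-106975827 on the minus strand for CD24.
CEACAM6: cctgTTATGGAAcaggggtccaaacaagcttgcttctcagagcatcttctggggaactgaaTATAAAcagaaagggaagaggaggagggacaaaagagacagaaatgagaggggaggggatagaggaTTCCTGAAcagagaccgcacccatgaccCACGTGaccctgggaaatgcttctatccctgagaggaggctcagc
CD52: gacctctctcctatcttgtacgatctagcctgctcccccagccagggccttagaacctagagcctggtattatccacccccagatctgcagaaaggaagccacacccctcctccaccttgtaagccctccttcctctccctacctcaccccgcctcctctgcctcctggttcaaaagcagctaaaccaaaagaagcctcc
CD24: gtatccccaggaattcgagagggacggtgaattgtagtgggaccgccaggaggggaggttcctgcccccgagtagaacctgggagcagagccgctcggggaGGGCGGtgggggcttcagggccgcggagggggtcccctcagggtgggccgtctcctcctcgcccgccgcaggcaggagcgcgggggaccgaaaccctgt
The CEACAM6 window held a TATAAA 139 bases before the start, a CACGTG at 45 bases and 2 matches to TTNCNNAA at 196 and 73 bases. Over the 35116 RefSeq promoters of the same length these motifs stood in 8.59%, 5.49% and 26.8%. The CD52 window held none of the 8 motifs, and the CD24 window held a GGGCGG 99 bases before the start, a motif of 40.1% of promoters. No motif was therefore shared by all 3 windows, and their base composition also differed, with 51.5% G and C in CEACAM6, 56.5% in CD52 and 70.5% in CD24. A match is a run of letters and not a measured binding site. RefSeq lists 3 starts for CD24, and the one nearest the gene's start in the files was used. For CEACAM6 the expression table begins the gene at 41750977 on chromosome 19, upstream of the RefSeq start. The CEACAM6 window printed here therefore lies inside the listed gene.

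The adhesion molecule CEACAM6, an immunoglobulin-family glycoprotein of granulocytes and epithelia, had the highest level of the 9 genes. It stood at 22.3, 23.1 and 23.8 FPKM in the control libraries and at 57.4, 63.7 and 67.1 FPKM in the shWTAP libraries. Every shWTAP library lay far above every control library, and the lowest of them was the library of high mitochondrial mRNA, shWTAP 1. The mean went from 23.1 ± 0.753 FPKM (SD, n = 3) to 62.7 ± 4.92 FPKM (SD, n = 3), which is 2.72-fold, with a log2 difference of 1.40 (SE 0.075) on log2(FPKM + 1). Among the 11383 genes that passed the filter (1 FPKM or more in at least 3 libraries) this difference ranked 2. Its control level ranked 1491 of 27411 genes, so CEACAM6 mRNA was already abundant before knockdown. In bulk RNA, a gain per cell and a gain in the number of cells with the transcript cannot be told apart.

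CD52 is a very short, heavily glycosylated peptide of lymphocytes and some myeloid cells, known as the target of alemtuzumab. Its levels were 3.70, 3.42 and 2.54 FPKM in control and 5.98, 9.59 and 7.68 FPKM in shWTAP. The groups did not overlap, although the shWTAP libraries were spread more widely than those of CEACAM6. The mean went from 3.22 ± 0.603 to 7.75 ± 1.80 FPKM (SD, n = 3 each), 2.40-fold, with a log2 difference of 1.04 (SE 0.17) and rank 17.

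CD24, a mucin-like sialoglycoprotein and, like CD52, a ligand of the inhibitory receptor SIGLEC10, was measured at 4.01, 3.66 and 4.28 FPKM in control and at 7.42, 6.79 and 6.94 FPKM in shWTAP. Its libraries were tight within each group and clearly separate between them. The mean went from 3.98 ± 0.315 to 7.05 ± 0.328 FPKM (SD, n = 3 each), 1.77-fold, with a log2 difference of 0.69 (SE 0.075) and rank 76. A copy of the gene, CD24P4, was listed at 0.492 FPKM or less in every library, and whether fragments were shared between the copies was not tested.

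The complement regulators went separate ways. CD59, which blocks the last step of the membrane attack complex, stood at 8.42, 8.33 and 9.07 FPKM in control and at 10.5, 10.7 and 11.2 FPKM in shWTAP. All shWTAP libraries were above all control libraries, by a much smaller margin than for the first 3 genes. The mean went from 8.61 ± 0.402 to 10.8 ± 0.336 FPKM (SD, n = 3 each), 1.25-fold, with a log2 difference of 0.30 (SE 0.065). CD24 and CD59 are thus the genes on either side of the gap between the 3 much higher members and the rest. CD55 (decay-accelerating factor), which takes apart the C3 convertases, was at 4.61, 4.68 and 5.01 FPKM in control and at 5.71, 4.21 and 4.15 FPKM in shWTAP. Its groups overlapped, with shWTAP 1 above all controls and the other 2 shWTAP libraries below them. The log2 difference of CD55 was -0.03 (SE 0.11) in all, 0.16 between shWTAP 1 and control 3, and -0.13 among the other 4 libraries.

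The prion protein gene PRNP, whose product binds copper at the cell surface, had the second highest control level. It stood at 23.1, 21.5 and 21.4 FPKM in control and at 22.4, 21.9 and 19.9 FPKM in shWTAP. The groups overlapped, and the means of 22.0 ± 0.932 and 21.4 ± 1.35 FPKM (SD, n = 3 each) differed by less than the spread of the libraries. PLAUR, the urokinase receptor, was at 3.54, 3.31 and 3.52 FPKM in control and at 3.03, 2.51 and 3.27 FPKM in shWTAP. It was the only member that passed the filter with every shWTAP library below every control library, with means of 3.45 ± 0.129 and 2.94 ± 0.387 FPKM and a log2 difference of -0.18 (SE 0.09).

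The remaining 2 members were too low for the filter. CD109, a co-receptor that dampens transforming growth factor β signalling, was listed at 0.358, 0.308 and 0.637 FPKM in control and at 0.543, 0.320 and 0.319 FPKM in shWTAP. CD48, an adhesion molecule of the SLAM family, was listed at 0.0263, 0.0445 and 0.0314 FPKM in control and at 0.165, 0.0430 and 0.0598 FPKM in shWTAP. Both genes overlapped between the groups, and the highest CD48 value was that of shWTAP 1.

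**Figure D1:**
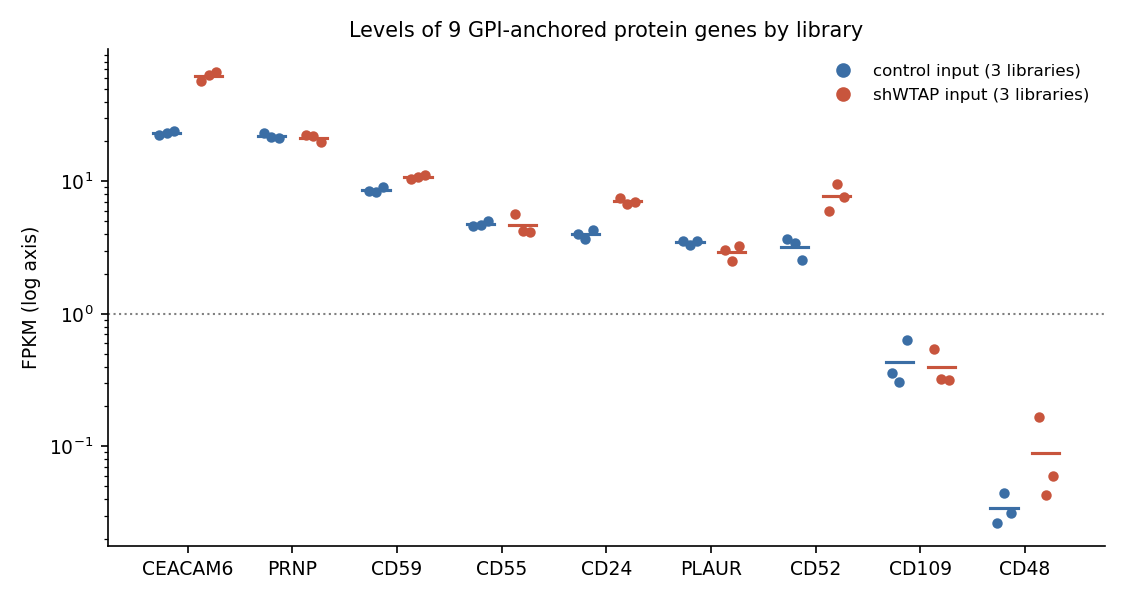
FPKM on a log axis of the 9 GPI-anchored genes in the 3 control input (blue) and 3 shWTAP input (red) libraries, 1 point per library and a bar at each mean, ordered by control mean. The dotted line marks 1 FPKM. CEACAM6, CD52, CD24 and CD59 have all red points above all blue points, PRNP and CD55 overlap, PLAUR lies lower, and CD109 and CD48 stay under 1 FPKM.

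Of the 9 members, 7 passed the filter, and 3 of these were called higher and 0 lower by the threshold used for all genes (limma adjusted p under 0.05), beside 1.48% of all tested genes called higher. Between the groups 5 of the 7 did not overlap, beside 28.2% of all tested genes. Since high values after knockdown brought the members in, these counts describe the choice. Without shWTAP 1 the count was 4, with CD59 added, beside 24.2% of all tested genes called in that fit. Without any other single library the count was 2, with CD52 lost, beside 46 to 81 of all 11383 tested genes. Split by mitochondrial share, shWTAP 1 minus control 3 and then the remaining 4 libraries gave log2 differences of 1.23 and 1.49 for CEACAM6, 0.98 and 1.07 for CD52, 0.67 and 0.70 for CD24, and 0.19 and 0.35 for CD59. Since the groups of these 4 genes do not overlap, their sign is the same in both subsets by construction. The order of levels also changed. In control, CEACAM6 and PRNP shared overlapping values at the top, and PLAUR and CD52 overlapped at the lower end of the 7. In shWTAP, CEACAM6 stood alone at the top, and CD52 and CD24 overlapped above CD55 and PLAUR.

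The genes whose profile over the 6 libraries was most like that of CEACAM6 were ranked among 6244 genes with a mean of at least 5 FPKM. Likeness was the root-mean-square difference of log2(FPKM + 1) after each gene was centred on its own mean. BPI, a bactericidal protein of neutrophil granules, came first at 0.0844, well ahead of the calcium-binding protein S100A4 at 0.205 and the arrestin-related ARRDC3 at 0.25. The fourth was another member, CD52, at 0.271, and the fifth was MSMO1, an enzyme of cholesterol synthesis, at 0.274. CD52 was the only other member among the 5 most similar profiles. Likeness over these libraries depends largely on the difference between the groups, on which the choice of the members rested. The place of CD52 therefore describes the choice. The mean of at least 5 FPKM was taken over all 6 libraries. BPI and CD52, with control means of 3.75 and 3.22 FPKM, met it only through their shWTAP means of 10.3 and 7.75 FPKM.

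CEACAM6 lies in a row of related genes on chromosome 19. Of 10 family members besides CEACAM6, 8 were in the table and 3 passed the filter. None of the 3 was called in either direction by limma, and 0 had an unadjusted p under 0.05, beside 3.89% and 23.5% of all tested genes. CEACAM19 was at 1.01 ± 0.0234 and 1.26 ± 0.0904 FPKM (limma adjusted p = 0.253), CEACAM4 at 2.41 ± 0.307 and 2.19 ± 0.214 FPKM (limma adjusted p = 0.593), and CEACAM21 at 3.29 ± 0.397 and 3.20 ± 0.337 FPKM (limma adjusted p = 0.871). The median log2 difference of the 3 genes was -0.03, as was that of all tested genes.

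The nearest relatives were far lower than CEACAM6, and they are named here after their values were seen. CEACAM5, 20544 bp away, was listed at 0.710, 0.391 and 0.360 FPKM in control and at 0.0735, 0.0659 and 0.0425 FPKM in shWTAP, so it moved opposite to CEACAM6 at a level under the filter. CEACAM7, at 44001 bp, was listed at 0.546, 0.233 and 0.205 FPKM in control and at 0 in all 3 shWTAP libraries. CEACAM3, at 24376 bp, was listed at 0 in all 3 controls and at 0.107, 0.0987 and 0.0796 FPKM in shWTAP. CEACAM8, the granulocyte marker also known as CD66b, did not exceed 0.0562 FPKM. These genes are close copies of one another, and whether fragments were shared or moved among them in counting was not tested. A long noncoding gene annotated as antisense to CEACAM6, AC243967, went from 0.589, 0.787 and 0.589 FPKM to 1.57, 1.66 and 1.82 FPKM. Whether fragments were counted by strand is not given in the sources used here, so reads of CEACAM6 and of this overlapping gene cannot be told apart.

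**Figure D2:**
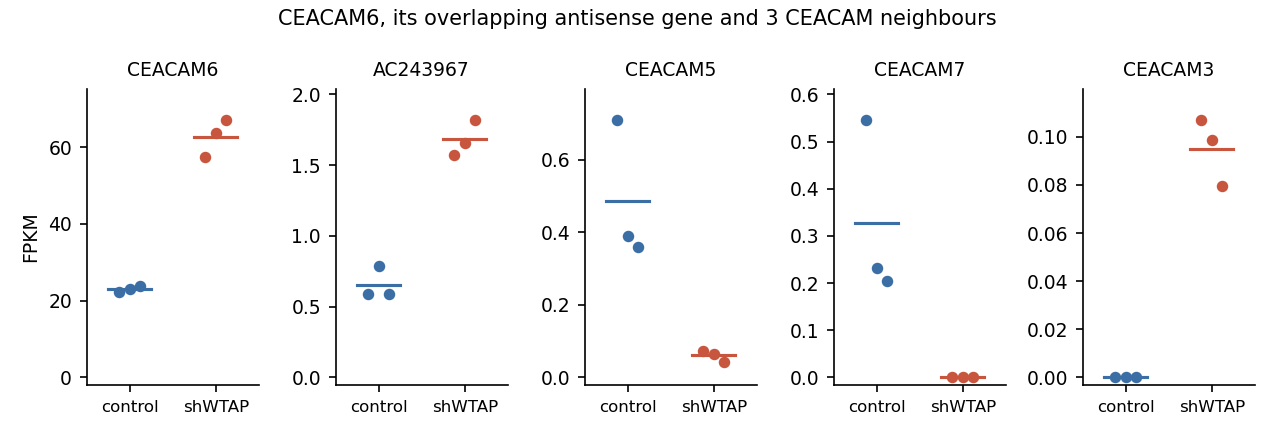
FPKM on linear axes from 0 for CEACAM6, the overlapping antisense gene AC243967 and the neighbours CEACAM5, CEACAM7 and CEACAM3, with 1 point per library and a bar at each group mean. Each panel has its own scale. CEACAM6 (22.3 to 67.1 FPKM) and AC243967 are higher in all shWTAP libraries, CEACAM5 and CEACAM7 are lower, and CEACAM3 is listed at 0 in the controls.

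CEACAM6 is known from maturing granulocytes, so markers of that and of other cell types were set beside it. Of 7 markers of mature granulocytes 4 were in the table, with summed levels of 2.12 to 2.47 FPKM in control and 3.41 to 3.69 FPKM in shWTAP. Nearly all of this was CXCR2, a chemokine receptor, which rose from 2.26 ± 0.124 to 3.51 ± 0.249 FPKM (SD, n = 3 each, limma adjusted p = 0.0236). That call was lost without any 1 library except shWTAP 1 (limma adjusted p = 0.0614 to 0.123). The granule genes LTF and LCN2 of that list did not exceed 0.0324 and 0.110 FPKM in any library. BPI, a granule gene outside the list, went from 3.75 ± 0.172 to 10.3 ± 1.18 FPKM. It is named here because its profile was the most like that of CEACAM6. Of the 5 epithelial markers, EPCAM was at 38.6 to 50.2 FPKM (limma adjusted p = 0.908) while KRT8, KRT18, KRT19 and CDH1 stayed at or below 0.501 FPKM. Among 5 markers of T or NK cells, CD3D was at 48.7 to 60.4 FPKM and the other 4 were under 1 FPKM. The 4 fibroblast markers were at most 0.241 FPKM, with sums of 0 to 0.0484 FPKM in control and 0.159 to 0.380 FPKM in shWTAP. Among them COL1A1 was listed at 0 in all 3 controls and at 0.228, 0.241 and 0.113 FPKM in shWTAP, and COL1A2 was also higher in every shWTAP library. The only erythroid marker of 4 in the table was at most 0.0523 FPKM. Monocyte markers reached 1.11 FPKM, and among them VCAN went from 0.105, 0.113 and 0.138 FPKM to 0.342, 0.283 and 0.285 FPKM. CD79A, the highest B cell marker, reached 2.80 FPKM. COL1A1, COL1A2 and VCAN were under the filter and are named after their values were seen. The part of these marker shifts in the values of the members was not tested.

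Among known partners of the 9 proteins, a shared receptor and a ligand rose and an integrin chain fell. Of 20 receptors, ligands and cofactors, 17 were in the table and 10 passed the filter, of which 2 rose, 1 fell and 7 did not pass the test, beside 1.48% of all tested genes called higher and 2.42% lower. An unadjusted limma p under 0.05 was found for 6 of the 10, beside 23.5% of all tested genes. Without shWTAP 1 the test called 5 of the 10, beside 24.2% of all tested genes, and without control 1, control 3 or shWTAP 3 it called 0. The list median log2 difference was 0.14, beside -0.03 for all tested genes.

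SIGLEC10, the inhibitory receptor for CD24 and CD52, was measured at 1.71, 1.80 and 1.94 FPKM in control and at 3.35, 2.93 and 3.38 FPKM in shWTAP. It rose 1.77-fold, from 1.82 ± 0.117 to 3.22 ± 0.252 FPKM (SD, n = 3 each, log2 difference 0.58, SE 0.08, limma adjusted p = 0.0151). Every shWTAP library lay above every control library. The SIGLEC10 call was lost without any 1 control or without shWTAP 3 (limma adjusted p = 0.0556 to 0.0871).

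PLAU, the urokinase that PLAUR binds, was at 8.07, 8.55 and 8.79 FPKM in control and at 11.8, 12.3 and 14.1 FPKM in shWTAP. It rose 1.51-fold, from 8.47 ± 0.363 to 12.8 ± 1.22 FPKM (SD, n = 3 each, log2 difference 0.54, SE 0.082, limma adjusted p = 0.019). The ligand was higher in every shWTAP library while the receptor PLAUR was lower in every one. The PLAU call was lost without any 1 library except shWTAP 1 (limma adjusted p = 0.0606 to 0.108).

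ITGB1, the β1 integrin chain that works with PLAUR in adhesion, was at 61.5, 58.1 and 64.7 FPKM in control and at 39.7, 31.4 and 31.3 FPKM in shWTAP. It fell from 61.4 ± 3.30 to 34.1 ± 4.85 FPKM (SD, n = 3 each), by -0.84 on the log2 scale (SE 0.10, limma adjusted p = 0.0116). The shWTAP library nearest the controls was again shWTAP 1. The ITGB1 call was lost without control 1, control 3 or shWTAP 3 (limma adjusted p = 0.0585 to 0.0692).

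The partners that did not pass included ADGRE5, the receptor of CD55, at 11.8 ± 0.208 and 13.9 ± 0.300 FPKM (limma adjusted p = 0.0815), and CD244, the receptor of CD48, at 3.89 ± 0.181 and 4.64 ± 0.333 FPKM (limma adjusted p = 0.155). CD46, a complement regulator that spans the membrane instead of carrying a GPI anchor, was at 17.0 ± 0.971 and 19.3 ± 0.667 FPKM (limma adjusted p = 0.177). The groups of all 3 did not overlap, as was so for 28.2% of all tested genes, and ADGRE5 and CD244 were called without shWTAP 1. These 3 were named after their values were seen.

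No gene that builds, attaches or transports the anchor passed the test. Of 37 such genes, all 37 were in the table and 34 passed the filter, of which 0 rose, 0 fell and 34 did not pass the limma test. Only 1 of the 34 had an unadjusted p under 0.05, beside 23.5% of all tested genes. The log2 differences ran from -0.24 to 0.22 with a median of 0.03, and 18 of 34 were above 0. The smallest adjusted p belonged to PIGC, a subunit of the enzyme that starts the anchor on phosphatidylinositol, with means of 4.12 ± 0.230 and 3.51 ± 0.224 FPKM (limma adjusted p = 0.195). DPM1, which makes the mannose donor, was at 45.5 ± 3.91 and 39.0 ± 6.29 FPKM, and PGAP2, which exchanges fatty acids of the anchor, at 4.24 ± 0.190 and 4.79 ± 0.364 FPKM (limma adjusted p = 0.293 for both). By step, the median was 0.05 for the first sugar steps (10 genes), -0.04 for mannose and ethanolamine phosphate addition (11 genes), -0.09 for the transamidase that joins anchor to protein (5 genes), 0.10 for remodelling (4 genes) and -0.01 for transport from the endoplasmic reticulum (4 genes). Without shWTAP 1 the test called 3 of the 34, DPM1 and PIGU lower and TMED9 higher, beside 24.2% of all tested genes in that fit.

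Among other GPI-anchored proteins 1 more gene rose. Of 54 other genes for such proteins, 41 were in the table and 12 passed the filter, and 1 rose, 0 fell and 11 did not pass, beside 1.48% of all tested genes called higher. An unadjusted limma p under 0.05 was found for 5 of the 12, beside 23.5% of all tested genes. The one that rose was BST1 (CD157), an ectoenzyme of myeloid cells that forms cyclic ADP-ribose, with control libraries at 8.07, 8.97 and 9.18 FPKM and shWTAP libraries at 12.9, 14.5 and 15.2 FPKM. All shWTAP libraries of BST1 lay above all controls. The mean rose 1.63-fold, from 8.74 ± 0.588 to 14.2 ± 1.18 FPKM (SD, n = 3 each, log2 difference 0.64, SE 0.084, limma adjusted p = 0.0134). The call was lost without any 1 control, shWTAP 2 or shWTAP 3 (limma adjusted p = 0.0552 to 0.0762). FOLR1, a folate receptor, was listed at 1.93, 1.43 and 1.81 FPKM in control and at 1.32, 0 and 0 FPKM in shWTAP, which did not pass (limma adjusted p = 0.108) and is named after its values were seen. The median of the 12 genes was 0.01.

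**Figure D3:**
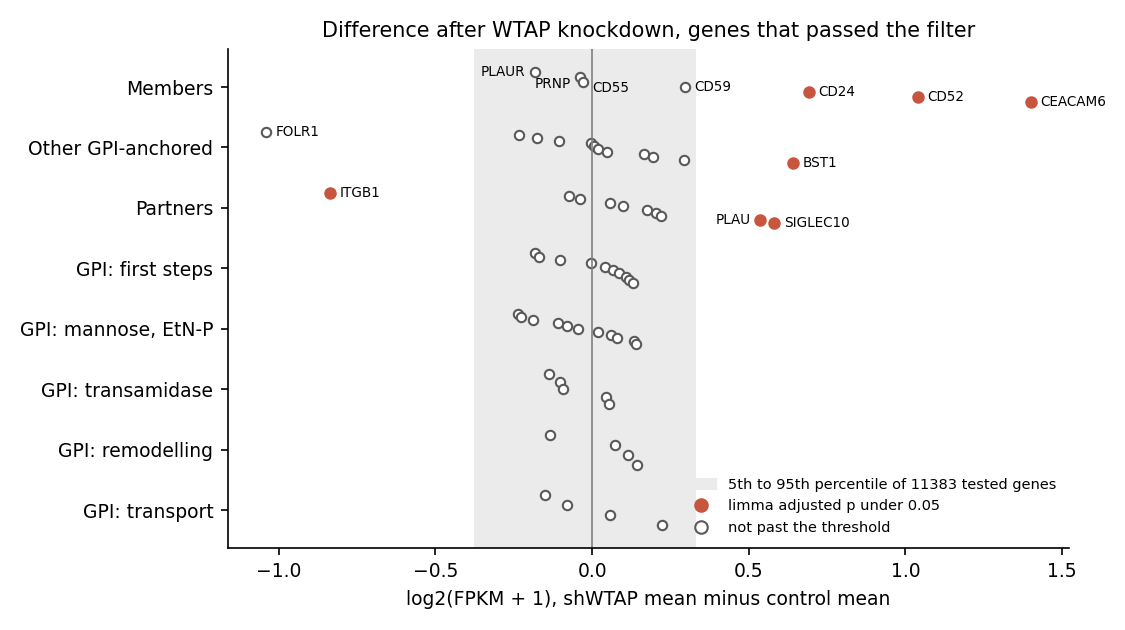
Difference of the mean log2(FPKM + 1), shWTAP minus control, for each gene that passed the filter, by group of genes. Filled points had a limma adjusted p under 0.05, open points did not, and the grey band spans the 5th to 95th percentile of all 11383 tested genes (-0.38 to 0.33). CEACAM6, CD52, CD24, BST1, PLAU and SIGLEC10 lie right of the band, ITGB1 and FOLR1 left of it, and all anchor pathway genes inside it. The filled points of the members describe the choice.

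The m6A peaks were not used to choose the members, but they were called against the same input libraries whose FPKM chose them. Each condition had 1 list, so peaks have no replicate and were not tested between the lists, and the fold enrichment (IP over input) of each peak is the authors' value, used here within a list. In each list 7 of the 9 members had a peak, and CD55 and CD109 had none in either. Of the 7 members that passed the expression filter, only CD55 had no peak. Of the members under the filter, CD48 had peaks and CD109 had none, beside 45.2% of all genes under the filter with a peak in either list. Among all 11383 genes that passed the expression filter, 77.2% had a peak in the control list, 77.1% in the shWTAP list and 18.4% in neither. Of the peaks assigned to members, 11 of 12 in the control list overlapped a peak of the other list, and 11 of 13 in the shWTAP list did, beside 82.6% and 82.8% of all peaks.

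CEACAM6 carried a peak annotated to the 5′ UTR and a peak annotated to the 3′ UTR in both lists. Their exonic blocks together ran along most of the gene. In the control list they lay 718 to 10302 and 11221 to 20309 bases from its 5′ end, of 21235. Each of these control peaks covered only 628 exonic bases. The peak annotated to the 5′ UTR spanned chr19:41751695-41761279 in the control list with a fold enrichment of 2.06, and chr19:41751725-41761249 in the shWTAP list with 2.27. The peak annotated to the 3′ UTR spanned chr19:41762198-41771286 with a fold enrichment of 3.83 in control, and chr19:41762198-41771136 with 3.90 in shWTAP. The blocks of these peaks overlapped between the lists. Both kinds of peak were weak for their list, the 3′ UTR peak at percentile 30.5 of fold enrichment in control and 31.3 in shWTAP. The shWTAP list held a further peak of 111 bp inside the first region, over bases that the first peak of the control list also covers, with a fold enrichment of 1.45 at percentile 1.5. It also held 1 peak over the CEACAM6 span that was assigned to the antisense gene AC243967, where the control list had none. The log10 p-value of the 3′ UTR peak went from -207 to -608, a score that depends on read number as well as on enrichment.

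The m6A writer prefers the core GGAC. Stretches of 30 bases with this core, in the first exon of the RefSeq entry, lay under peak blocks of members. These were blocks of CEACAM6 in both lists (chr19:41755530-41755559, plus strand) and of PLAUR in the control list (chr19:43670135-43670164, minus strand). The CEACAM6 block lay 4543 to 4725 bases from the 5′ end of the listed gene. The control peak began in an earlier block, at 718 to 771 bases. The sequences are from RefSeq GRCh38.p14 on the transcript strand, with GGAC in capitals, and are shown because they are the member sites where peak and sequence could be joined.
CEACAM6: acagaaggaggaaGGACagcagggccaaca
PLAUR: agaagacgtgcagGGACcccgcgcacagga
GGAC stood in the first 50 bases after the start in 18.9% of 35116 RefSeq entries. The match marks letters under a wide peak and not a measured methylated base.

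CD24 had 1 peak in its 3′ UTR in each list, at chr6:106971051-106973698 with a fold enrichment of 10.3 in control (percentile 71.7) and at chr6:106971021-106973787 with 9.26 in shWTAP (percentile 65.7). Both were long, covering 864 and 983 exonic bases. CD52 had a short 3′ UTR peak in control (chr1:26320377-26320494, fold enrichment 2.66), which lay inside a wider one in shWTAP (chr1:26320173-26320523, fold enrichment 1.88). An exon peak of CD52 (chr1:26318764-26318939) was listed in shWTAP alone with a fold enrichment of 9.65, but with a log10 p-value of only -2.16. The 3 members that were much higher in shWTAP had 3′ UTR peaks in both lists. Fold enrichment of these peaks was low in CEACAM6 and CD52 and higher in CD24. CD48, CD59 and PRNP also had a peak annotated to the 3′ UTR in both lists. Among the members with a peak, only PLAUR had none there.

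PRNP had the strongest peak of the group. It began at the gene's 5′ end and was annotated to the 3′ UTR, at chr20:4686350-4700252 with 1399 exonic bases in control and at chr20:4686350-4700192 with 1339 in shWTAP. Its fold enrichment was 51.0 in the control list, percentile 98.6, and 22.6 in the shWTAP list, percentile 92.1. With 1 list per condition these values have no error, and no change in methylation can be read from them.

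CD59 had a long 3′ UTR peak with a fold enrichment of 4.19 in control and 5.47 in shWTAP, and an exon peak with 2.59 and 2.70. The control list held another CD59 peak, annotated to the 5′ UTR with a fold enrichment of 2.26, whose bases lay partly under the 3′ UTR peak of the shWTAP list. PLAUR had 3 peaks in each list, 1 in an exon (fold enrichment 4.14 and 4.82) and 2 in the 5′ UTR (2.02 and 10.2 in control, 2.63 and 5.79 in shWTAP), and all 3 overlapped between the lists. None of the PLAUR peaks was annotated to the 3′ UTR, where 46.8% of control peaks and 46.3% of shWTAP peaks were placed.

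CD48 had 1 peak in each list with a fold enrichment of 6.77 and 5.79, and the 2 did not overlap. Their log10 false discovery rates of -0.438 and -1.16 were weak, and the mRNA stood at no more than 0.165 FPKM, so these are peaks on very little RNA. Among the 16028 genes under the filter, 45.2% had a peak in at least 1 list. The peak lists assign each peak to 1 gene. Within the span of CD59, 2 peaks in control and 3 in shWTAP were assigned to another gene, AL049629. Within the span of PLAUR 1 peak in each list was assigned to CADM4, and within that of CD52 1 peak in the shWTAP list was assigned to UBXN11.

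**Figure D4:**
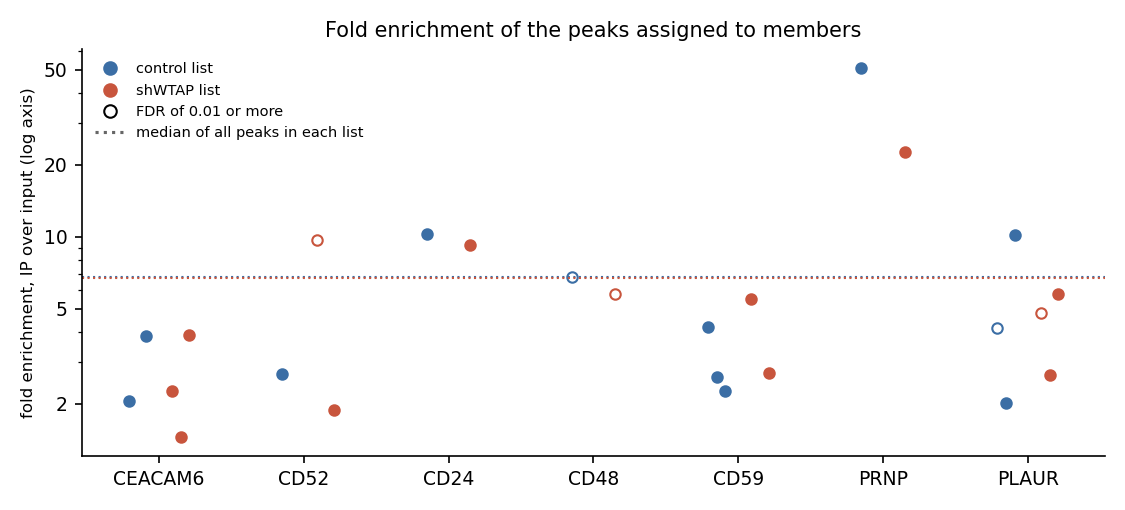
Fold enrichment (IP over input, log axis) of each peak assigned to a member, for the control list (blue) and the shWTAP list (red), 1 point per peak. Open points have a false discovery rate of 0.01 or more, and dotted lines mark the median of all peaks in each list (6.77 and 6.75). PRNP and CD24 lie above the medians in both lists, and all CEACAM6 peaks lie below them.

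**Figure D5:**
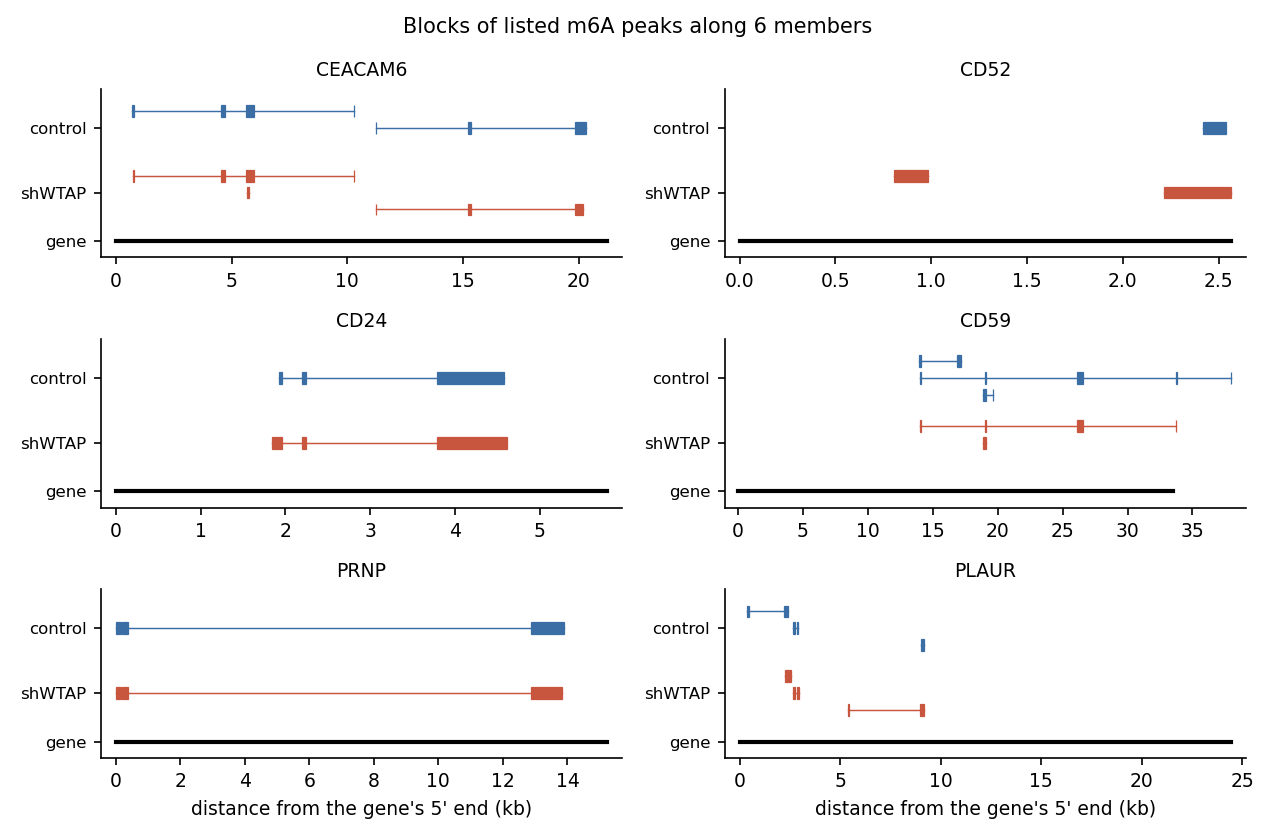
Peaks along 6 members, as exonic blocks joined by lines, against distance in kb from the gene's 5′ end, with control peaks in blue, shWTAP peaks in red and the gene's extent as a black bar. The blocks of CEACAM6, CD24 and PRNP nearly coincide between the lists, and the CD52 exon peak is in the shWTAP list alone. CD59 blocks run past the listed gene.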

How the data were processed

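Gene levels of the 6 input libraries were used as the authors deposited them, in FPKM. The build, the annotation, the counting program and its use of strand were not given in the sources used here. Tools named are fastp, HISAT2, HOMER and ChIPseeker, per the submitters' processing notes, without role or version. FPKM keeps no read number, so depth is unknown and no counting interval was set. Each peak came with the authors' deposited fold enrichment (IP divided by input), a p-value of 0.05 or less, and log10 values of p and of the false discovery rate as scores, per the file headers. Pooling of replicates before peak calling is not described there.

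The difference of shWTAP minus control was fitted with limma 3.58.1 in R 4.3.3 (eBayes with trend) on log2(FPKM + 1), a scale that understates the change of low genes. Genes needed at least 1 FPKM in at least 3 libraries. Calls were made at a Benjamini-Hochberg adjusted p under 0.05, adjusted over all tested genes. A fold is the ratio of 2 group means in FPKM. An exact two-sided permutation test of 3 against 3 libraries has a smallest p of 0.1, which is why limma's pooled model was used. The fit was checked on simulated data with independent errors. That check does not cover error shared across genes, as in control 3 and shWTAP 1, and so does not bear on the calls here. Peaks were compared on exonic blocks with bedtools 2.31.1, counting an overlap of at least 1 bp and ignoring strand, because the lists give the strand of the assigned gene. Symbols of the table matched 20187 entries of the RefSeq table (GRCh38.p14), and 99.9% of these overlapped in position. Promoters were matched by symbol for 8 of the 9 members.

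The members, the gene lists and the named-gene rule were chosen with earlier results of these data known. The rule named all members and WTAP, the called genes of each list (at most 6) or otherwise the 3 with the smallest adjusted p, and the 5 profiles most like CEACAM6. Alternatives were another pseudocount, filter, scaling and variance model, blocks, and leaving out each library.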

Additional observations from a re-analysis of the deposited data

How the results depend on the processing

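WTAP stayed past the threshold in every alternative run, with log2 differences from -0.84 to -0.69. Genes called over the whole table numbered 443, against 82 with no filter, 672 after quantile normalization, 1938 with the 2 libraries of high mitochondrial mRNA as a block and 46 to 2751 with 1 library left out. Leaving out both libraries of high mitochondrial mRNA, an alternative chosen after seeing the data, gave 3142. For the anchor pathway the calls were 1 with that block (DPM1 lower), 0 to 3 with 1 library left out and 6 without both libraries. For other GPI-anchored proteins, against 1, they were 0 with no filter, 3 with the block, 0 to 4 with 1 library left out and 5 without both. For the CEACAM family they were 1 with no filter (CEACAM3 higher) and 0 in the other alternatives that tested any of its genes; a filter of 5 FPKM left none. For partners, against 3, they were 0 with no filter, 5 with the block, 0 to 5 with 1 library left out and 6 without both. With no filter BST1, ITGB1, PLAU and SIGLEC10 missed the threshold (limma adjusted p = 0.0591 to 0.0701). The cause of these shifts was not tested, beyond the larger number of genes tested with no filter. 

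Replicate numbers did not pair the libraries: the deviations of same-numbered control and shWTAP libraries correlated at -0.106, 0.167 and -0.144. With the replicate block the fit called 77 genes, and 1 partner, ITGB1.

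Of the members, described without a test, 3 were past the threshold, beside 443 of all 11383 tested genes. The count was 2 (without CD52) with no filter, beside 82 of 27411 genes, and with the replicate block, beside 77 of 11383. A count of 4 (with CD59) came after the 5 FPKM filter (449 of 6342 genes), quantile normalization (672 of 11383) or median centring (662). The mitochondrial block (1938) and leaving out both libraries (3142) also gave 4. CD52 and CD24 passed the 5 FPKM filter only through their shWTAP libraries, while CD55 and PLAUR did not pass it. The count under that filter describes the choice. CD24 moved to 0.81 with a pseudocount of 0.1 and CD59 to 0.35 without both libraries of high mitochondrial mRNA, each on the log2 scale. A false discovery rate under 0.01 left 6 members with a peak in each list, and a fold enrichment of at least 4 left 6 peaks in the control list and 7 in the shWTAP list. Depth is unknown, so low values such as those of CD48, CD109 and the CEACAM neighbours carry no counting error, and the peak lists carry no replicate.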
